A study of Mus musculus with 6 samples.

Results

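Cerebellins are secreted proteins of the C1q family that act as synaptic glue. In the cerebellar cortex, granule cells make Cbln1, send it down their axons, the parallel fibres, and release it at synapses on Purkinje cells, where it is held between presynaptic neurexins and the postsynaptic delta glutamate receptor GluD2. C1ql1, a related ligand carried by climbing fibres, uses the adhesion receptor Bai3 (gene Adgrb3) on the same Purkinje cells. Mice without Cbln1 lose a large part of their parallel fibre synapses and are ataxic. The genes described here were chosen by name: Cbln1, Cbln2, Cbln3 and Cbln4 (the cerebellins), C1ql1 (the climbing fibre ligand), Grid1 (GluD1, the second delta receptor) and Adgrb3. All 7 have a row among the 21927 rows of the gene table.

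The vermis, the midline region of the cerebellum, was taken from mice aged 8 weeks for RNA sequencing. The groups are dCas mice, the controls, and LINE-1a mice, described by the study as having the retrotransposon LINE-1 switched on. Each group has 3 mice, 1 library each. The sources used here do not say how LINE-1 is switched on, in which cells, or which alleles the groups share. Values are normalized counts, the reads of a gene divided by 1 size factor per library, and the comparison asks how these genes differ between the groups.

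The libraries held 23483158 reads (LINE-1a 2) to 33445789 reads (dCas 3). By the Y-linked genes, LINE-1a 1 and LINE-1a 2 came from females and the other 4 libraries from males, so sex and group are partly confounded. Choroid plexus tissue varied by mouse, with overlapping ranges: the summed level of 8 markers ran from 1499 to 86475 in dCas and from 2017 to 107898 in LINE-1a libraries. The tissue carried its defining cells in all 6 libraries. Gabra6, the granule cell GABA receptor subunit, had a mean of 15002 ± 401 (SD) normalized counts in the controls and 15759 ± 1535 after activation. The Purkinje cell gene Calb1 had means of 5801 ± 657 and 5873 ± 1109, although 7 of the 10 Purkinje cell markers were below 0, with a median log2 fold change of -0.38. Over all 15800 features tested, limma called 23 (0.146%) at a Benjamini-Hochberg adjusted p under 0.05.

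None of the 7 genes was called as different between the groups. By limma 0 of the 5 genes with enough reads for the test passed, and edgeR (0.146% of features called) and DESeq2 (0.899%) on the recovered reads also called 0. With sample weights, which let a library count less where it varies more, limma called 2 of the 5, Cbln3 and Adgrb3, beside 7.72% of all features. At an unadjusted p under 0.05, 2 of the 5 passed, Cbln3 lower and Adgrb3 higher, where 15.3% of all features did (7.35% lower and 7.94% higher). All of the tested ligands had lower means in LINE-1a vermis, by log2 fold changes of -0.19 to -0.81. Both receptors had higher means, by 0.55 and 0.77. The median of all features was 0.03. These ligand genes span 4.2 to 7.42 kb and the receptor genes 762 and 763 kb, so role and gene span cannot be told apart. Of all tested genes, 87.0% of those spanning 400 kb or more were above 0, against 44.3% of those under 10 kb.

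Cbln3, the granule cell cerebellin that leaves the endoplasmic reticulum only in complexes with Cbln1, differed most among the tested ligands. It was at 30968, 41767 and 45001 normalized counts in dCas 1, 2 and 3 and at 30157, 16064 and 22306 in LINE-1a 1, 2 and 3. All LINE-1a mice lay below all dCas mice, but LINE-1a 1 lay only just below dCas 1. The means were 39245 ± 7349 in dCas and 22842 ± 7062 in LINE-1a vermis (SD, n = 3), which gave a log2 fold change of -0.81 ± 0.29 (SE) with a limma adjusted p of 0.325. The 95% interval of the difference ran from -1.46 to -0.16 before adjustment. Cbln3 was the only one of the 7 genes whose groups did not overlap, which 22.1% of all tested features share (12.3% in the lower direction). In whole tissue, fewer cells of a type and less RNA per cell cannot be told apart.

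Cbln1, the partner that binds neurexins and GluD2, showed no such separation. It was at 3929, 5735 and 5651 normalized counts in the dCas libraries and at 4350, 5184 and 3822 in the LINE-1a libraries. The 2 groups overlapped throughout, with the lowest value in LINE-1a 3 and the next in dCas 1. These mice also had the highest choroid plexus markers, with median log2 deviations from the dCas mean of 2.88 and 3.05. The next was LINE-1a 2 at 1.02. The part of this tissue in the Cbln1 values was not tested. The log2 fold change was -0.19 ± 0.20 (SE, limma adjusted p = 0.62), with a 95% interval from -0.63 to 0.26, so a moderate loss of Cbln1 RNA lies within the error. Cbln1 lies on chromosome 8 (GRCm38, 87468405 to 87472609, minus strand) inside the span of an antisense long noncoding gene, and Cbln3 on chromosome 14 (55878913 to 55884392, minus strand) with no overlapping gene. Whether counting used strand is not stated in these sources, so reads of Cbln1 and of its antisense partner cannot be told apart.

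**Figure D1:**
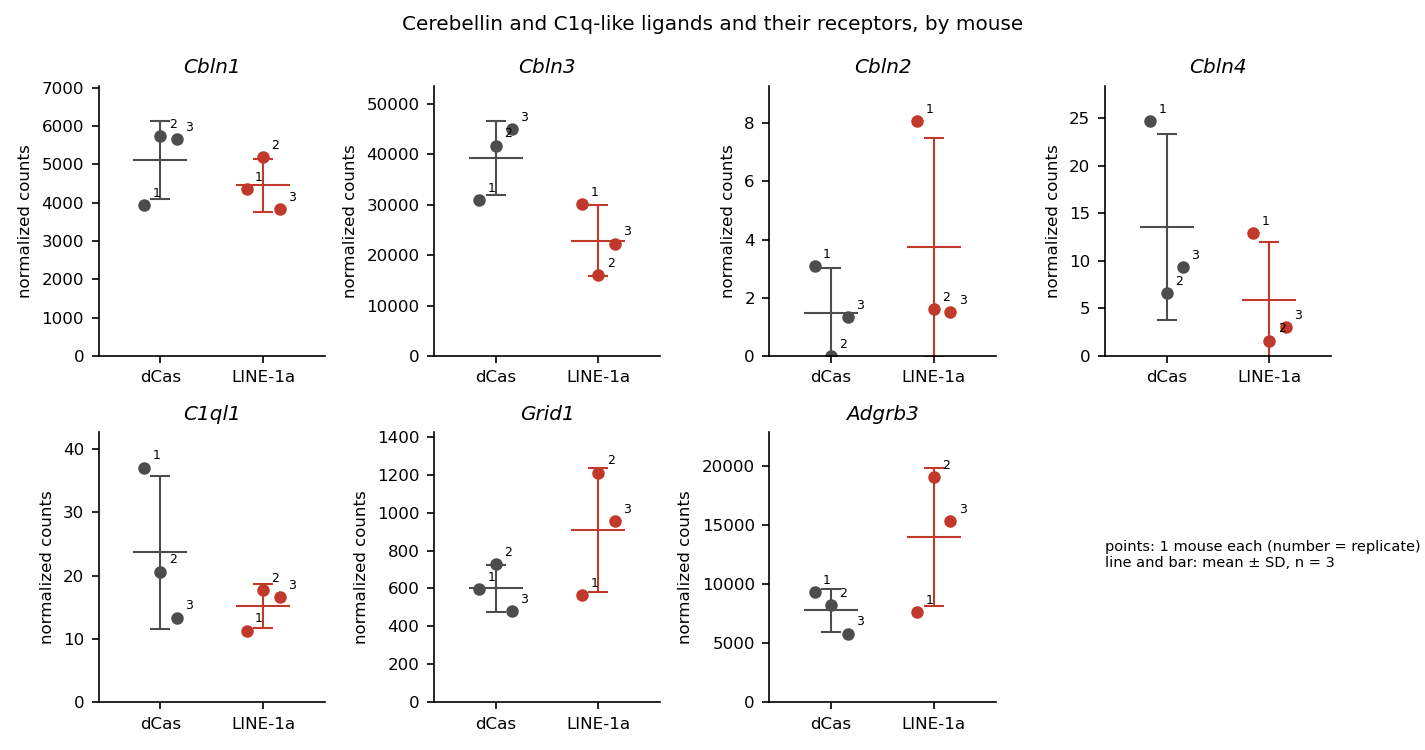
Normalized counts of the 7 genes in each mouse (vertical axes start at 0), with points numbered by replicate, and group means with SD bars (n = 3; bars are cut at 0). Cbln3 is the only gene without overlap between dCas and LINE-1a mice, while Grid1 and Adgrb3 are high in LINE-1a 2 and LINE-1a 3 and within the dCas range in LINE-1a 1.

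The ratio of the granule cell cerebellins was lower in every LINE-1a mouse. The log2 ratio of Cbln3 to Cbln1 was 2.98, 2.86 and 2.99 in the dCas mice and 2.79, 1.63 and 2.54 in the LINE-1a mice. It hardly varied among dCas mice (2.95 ± 0.07, SD) and more among LINE-1a mice (2.32 ± 0.61), with a difference of -0.62 that was -0.28 without LINE-1a 2. The exact two-sided permutation test gave p = 0.1, the smallest that 3 against 3 mice allow, and 0.2 after adjustment over the 2 ratios tested. These ratios are not corrected for transcript length, so only their change between mice can be read.

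Set against granule cell markers, both cerebellins had lower means in LINE-1a vermis. The log2 level of Cbln1 minus the mean log2 level of 15 granule cell markers was -0.41, 0.07 and 0.10 in dCas mice and -0.32, -0.46 and -0.76 in LINE-1a mice. The groups overlapped through dCas 1, and the difference of -0.43 did not pass (exact permutation p = 0.2, adjusted 0.2). For Cbln3 the same measure was 2.56, 2.93 and 3.10 in dCas and 2.48, 1.18 and 1.78 in LINE-1a mice, without overlap and not tested. Of the granule cell markers 0 were called by limma, 3 had an unadjusted p under 0.05, all of them higher (7.94% of all features), and the median log2 fold change was 0.14. Their summed level was 155113 to 164348 in dCas and 168626 to 211854 in LINE-1a libraries. The markers themselves differed by gene span: the 5 spanning 100 kb or more had a median log2 fold change of 0.51 and the 10 shorter ones of 0.06. Against the shorter markers alone, a choice made after seeing the data, the difference was -0.32 for Cbln1, with overlap, and -0.95 for Cbln3, without overlap.

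**Figure D2:**
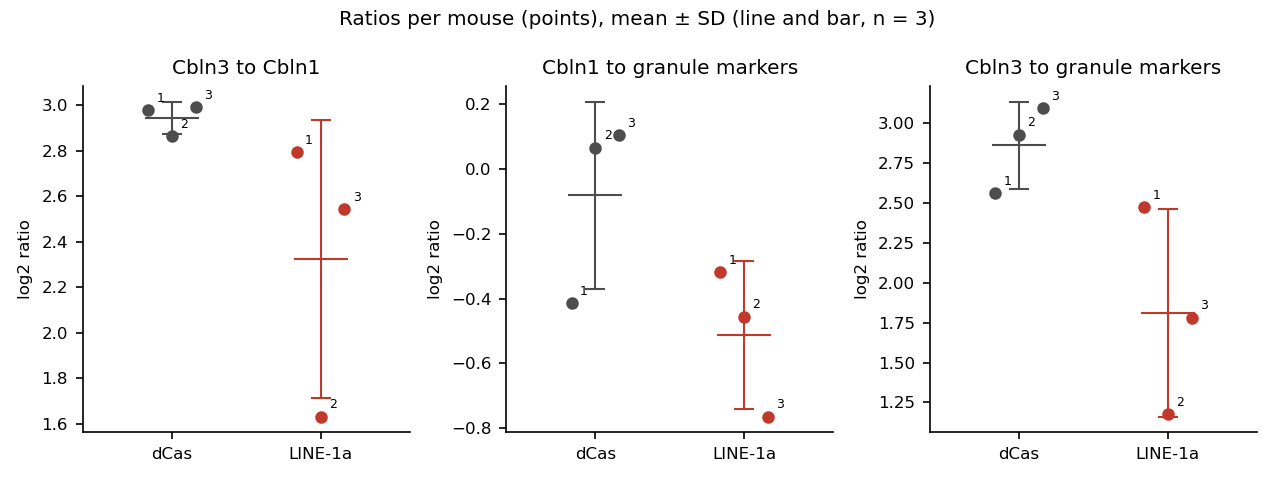
Log2 ratios per mouse (points numbered by replicate) of Cbln3 to Cbln1, of Cbln1 to the mean of 15 granule cell markers and of Cbln3 to the same markers, with group means and SD bars (n = 3). The ratio of Cbln3 to Cbln1 stays between 2.86 and 2.99 in dCas mice and drops to 1.63 in LINE-1a 2.

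Cbln2 and Cbln4, the cerebellins best known from forebrain and other circuits, were near the limit of detection and did not reach the mean of 10 normalized counts set for the test. Cbln4 had 32, 9 and 14 reads in the dCas libraries and 16, 2 and 4 in the LINE-1a libraries. The values overlapped, with both the highest count in dCas 1 and the lowest in LINE-1a 2, and without a filter the log2 fold change was -1.26 (limma adjusted p = 0.415). Cbln2 had 20 reads over all 6 libraries, 10 of them in LINE-1a 1, and 0 in dCas 2, where a count of 0 allows up to 2.21 normalized counts. No difference in Cbln2 was detectable at this depth.

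C1ql1 was also low. It was at 37.0, 20.6 and 13.3 normalized counts in dCas mice and at 11.3, 17.7 and 16.6 in LINE-1a mice, from 154 reads in all. The groups overlapped, and the dCas mean rests on dCas 1, without which the log2 fold change moved from -0.51 ± 0.41 (SE, limma adjusted p = 0.512) to -0.14. Climbing fibres arise from neurons of the inferior olive, in the brainstem. C1ql1 lies on chromosome 11 (102939264 to 102946688, minus strand), within an antisense long noncoding gene. Its relatives C1ql3 and C1ql4 were at log2 fold changes of -0.10 and -0.05, and C1ql2, too low for the test, reached at most 5.65 normalized counts.

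Of the receptors, Adgrb3 differed most. Bai3 is an adhesion G protein-coupled receptor on Purkinje cell dendrites that receives C1ql1. Adgrb3 was at 9331, 8189 and 5806 normalized counts in dCas mice and at 7607, 19048 and 15333 in LINE-1a mice. LINE-1a 2 and LINE-1a 3 stood above every dCas mouse and LINE-1a 1 stood within the dCas range. The means were 7775 ± 1798 and 13996 ± 5836 (SD), a log2 fold change of 0.77 ± 0.33 (SE, 95% interval 0.03 to 1.52, limma adjusted p = 0.325).

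Grid1 was likewise highest in LINE-1a 2 and LINE-1a 3, at a lower level. GluD1, its product, is a delta receptor that also binds cerebellins and is found in interneurons of the molecular layer and in the forebrain. It was at 595, 729 and 480 normalized counts in dCas mice and at 564, 1211 and 956 in LINE-1a mice, again with LINE-1a 1 inside the dCas range. The log2 fold change was 0.55 ± 0.27 (SE, limma adjusted p = 0.343). Over the 6 libraries the centred log2 values of Grid1 and Adgrb3 differed by a root mean square of 0.20, against 1.09 between Cbln3 and Adgrb3 and 0.47 between Cbln1 and Cbln3.

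**Figure D3:**
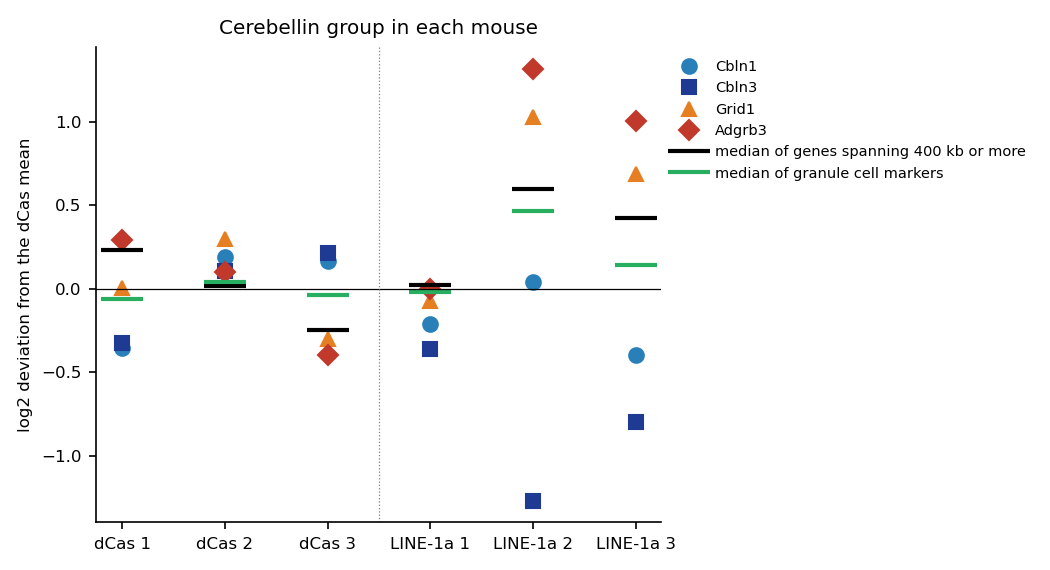
Log2 deviation from the dCas mean in each mouse for Cbln1, Cbln3, Grid1 and Adgrb3, with the median of genes spanning 400 kb or more and the median of the granule cell markers as bars. Adgrb3 and Grid1 lie at 1.32 and 1.03 in LINE-1a 2, where Cbln3 lies at -1.27 and the long genes at 0.60.

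Both receptor genes are far longer than the ligand genes, and long genes as a class had higher values in the same mice. Adgrb3 spans 762 kb on chromosome 1 (25067476 to 25829707, minus strand) and Grid1 763 kb on chromosome 14 (34820108 to 35583379, plus strand), while the 5 ligand genes span 4.2 to 7.42 kb. Annotated genes overlap both receptor genes, 23 for Adgrb3 and 4 for Grid1, with 2 antisense in each case, so a share of their reads may belong to these. Among all tested genes the median log2 fold change was 0.35 for the 347 genes spanning 400 kb or more, of which 87.0% were above 0, and -0.05 for the 3586 genes under 10 kb. Measured from the control mean, these long genes had median deviations of 0.02, 0.60 and 0.43 in LINE-1a mice and of 0.23, 0.02 and -0.25 in dCas mice, in order of replicate. Adgrb3 had the same order of mice within each group, and the part of gene span in its value was not tested beyond the alternative that follows.

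With the trend in gene span removed from each library, an alternative chosen after seeing the data, the log2 fold change of Adgrb3 was 0.45 and that of Grid1 0.22. Those of Cbln3 (-0.78) and Cbln1 (-0.16) changed little. Within its own length class Adgrb3 ranked 18th of 347 from the top and Grid1 88th. Cbln3 ranked 67th from the bottom of the 3586 genes under 10 kb.

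**Figure D4:**
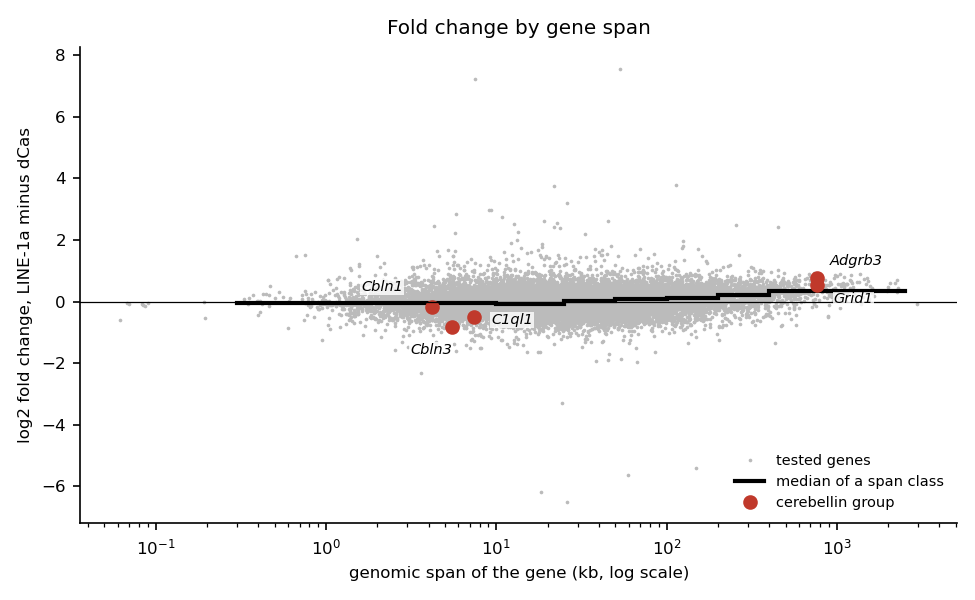
Log2 fold change (LINE-1a minus dCas, limma) of tested genes against the genomic span of the gene (log scale), with black bars at the median of each span class. The median climbs from -0.05 under 10 kb to 0.35 at 400 kb or more; Adgrb3 and Grid1 lie above the bar of their class and Cbln3 below its own.

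Markers of several cell types, among them oligodendrocytes and astroglia but not microglia, were low in the mice where Cbln3 was low and Adgrb3 high. For the 8 oligodendrocyte markers the median log2 fold change was -0.60, from summed levels of 271916 to 357578 in dCas and 126531 to 290027 in LINE-1a libraries. Their median deviations from the dCas mean were -0.03, -1.16 and -0.57 in the LINE-1a mice in order of replicate. Bergmann glia and astrocyte markers (9 tested, median -0.46) and markers of the cerebellar nuclei and brainstem (7 of 10 tested, median -0.54) had the same order of LINE-1a mice, and none of these markers was called by limma. The part of these markers in the values of Cbln3 and Adgrb3 was not tested. For the 8 microglia markers the median was 0.09, 6 were above 0, and the median deviations were 0.34, -0.06 and 0.12 in the LINE-1a mice. For 6 endothelial markers the median was -0.32, with median deviations of 0.05, -0.45 and -0.41 in the LINE-1a mice. The median was 0.03 for 6 unipolar brush cell markers. Purkinje cell markers and markers of molecular layer interneurons and Golgi cells (median -0.38) were lowest in LINE-1a 3 by their median deviation. The Purkinje cell markers Rgs8 (-0.98), Itpr1 (-0.61), Car8 (-0.56) and Ppp1r17 (-0.41) did not overlap between groups, which 22.1% of all tested features share. Rgs8 and Itpr1 were lowest in LINE-1a 2, as Cbln3 was, and Car8 and Ppp1r17 in LINE-1a 3. Of 9 oligodendrocyte precursor markers 6 were below 0 and 3 above, with a median of -0.23. Their median deviations were -0.10, -0.31 and -0.25 in the LINE-1a mice. Pdgfra was at 346 ± 54.5 and 220 ± 101 (log2 fold change -0.75, limma adjusted p = 0.325).

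Only 1 LINE-1a mouse, LINE-1a 3, was male. With sex as a covariate the log2 fold change was -0.80 for Cbln3, 1.01 for Adgrb3 and -0.40 for Cbln1, none of them called (limma adjusted p = 0.773 each). That fit compares LINE-1a 3 alone with the 3 dCas males, so the effect of the group and of this 1 mouse cannot be told apart.

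The letters upstream of Cbln3 and Adgrb3 are shown because these genes had the largest differences of the 5 tested, in opposite directions. Both sequences are from RefSeq on GRCm38.p6, read 5′ to 3′ on the minus strand, each gene's own, up to the start of the longest GENCODE transcript. Capitals mark the dinucleotide CG, which reads the same on both strands.
Cbln3, chr14:55884393-55884506: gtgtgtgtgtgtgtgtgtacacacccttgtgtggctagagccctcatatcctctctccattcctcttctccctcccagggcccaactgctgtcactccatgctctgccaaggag
Adgrb3, chr1:25829708-25829957: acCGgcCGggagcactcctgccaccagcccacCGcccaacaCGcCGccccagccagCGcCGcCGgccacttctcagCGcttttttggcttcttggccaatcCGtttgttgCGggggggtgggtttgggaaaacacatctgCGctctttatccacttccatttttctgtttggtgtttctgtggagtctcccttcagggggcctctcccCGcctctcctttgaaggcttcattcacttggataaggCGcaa
The Cbln3 stretch of 114 bases holds 0 CG and opens with a run of GT repeats, and the Adgrb3 stretch of 250 bases holds 14. Over the 250 bases before the RefSeq start, Cbln3 has 2 CG, Cbln4 11 and Adgrb3 14. Among 32851 such windows, 92.1% hold at least 1 CG, with a median of 6, and 29.0% hold as few as Cbln3 or fewer. Of the 7 genes, 3 matched the promoter table. These counts describe the letters only.

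Per kilobase of exon, Cbln3 was the most abundant of the 7 genes. In dCas vermis the levels were 8065 ± 1510 normalized counts per kb (SD, n = 3) for Cbln3, 1681 ± 336 for Cbln1, 419 ± 96.9 for Adgrb3 and 101 ± 20.9 for Grid1. C1ql1 followed at 16.1 ± 8.23, Cbln4 at 4.67 ± 3.35 and Cbln2 at 0.509 ± 0.534. No neighbours in this order overlapped among the dCas mice. The order held for the means of the LINE-1a mice, with Cbln3 at 4694 ± 1451 and Cbln1 at 1466 ± 226, although Cbln4 and Cbln2 overlapped there. Cbln3 ranked 68th and Cbln1 545th of 15191 tested genes with a known exon length.

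The genes most like each of these, by the smallest root mean square difference of centred log2 values over the 6 libraries among 12944 genes, were as follows. For Cbln3 they were Camk1g (0.08), a calmodulin-dependent kinase, and Faim2 (0.09), an inhibitor of neuronal apoptosis. Camk1g was at 690, 955 and 1043 normalized counts in dCas mice and at 715, 370 and 593 in LINE-1a mice, low in LINE-1a 2 as Cbln3 is. Adgrb3 was closest to Ralyl (0.03), an RNA-binding protein gene of 711 kb, and to Pde4d (0.06), a cyclic AMP phosphodiesterase gene of 1504 kb. Grid1 was closest to Gpr137c and Mark4 (0.07 each), which span 63.0 and 34.0 kb and so are not long genes, and Cbln1 to Spef1 (0.06) and Terf2ip (0.065). With 6 libraries, likeness of this kind is a description.

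The partner genes of the cerebellin bridge gave no call by limma or edgeR in any list. Neurexins are the presynaptic receptors of the cerebellins. Nrxn2 had a log2 fold change of 0.39 ± 0.28 (SE, limma adjusted p = 0.472) and Nrxn3 of 0.30 ± 0.28 (0.574), and the groups overlapped for both. Nrxn3 spans 1612 kb and ranked 200th of the 347 longest genes, below Adgrb3 and Grid1. Of the 7 neurexins and cytoplasmic partners counted, 6 were above 0, with a median log2 fold change of 0.20. At an unadjusted p under 0.05, 1 of the 7 passed, where 15.3% of all features did (7.94% higher). That gene was Apba1, a scaffold of the presynaptic terminal (0.58, limma adjusted p = 0.325). Apba1 spans 191 kb, in a class whose median log2 fold change was 0.13 and of which 65.1% were above 0. Lin7c, a scaffold gene of the same complex, was the 1 below 0 (-0.40, limma adjusted p = 0.389).

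Among the other adhesion receptors, Adgrb1, which encodes Bai1, a relative of Bai3, was at 99.4, 121 and 111 normalized counts in dCas mice and at 177, 238 and 173 in LINE-1a mice. Its groups did not overlap, which 22.1% of all tested features share. The log2 fold change of Adgrb1, 0.81 ± 0.21 (SE), had a limma adjusted p of 0.325 and a DESeq2 adjusted p of 0.0499. It was the 1 gene of the lists that DESeq2 called, where DESeq2 called 0.899% of all features. Adgrb1 spans 73.3 kb, in a class whose median log2 fold change was 0.08. The latrophilin gene Adgrl3 had a log2 fold change of 0.50 (limma adjusted p = 0.325).

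On the postsynaptic side, of 9 genes for proteins that bind GluD2 or its scaffold, 8 were above 0 in RNA of whole vermis. By limma, edgeR or DESeq2 0 were called, and 0 passed an unadjusted p of 0.05, where 15.3% of all features did. Ptpn4, a tyrosine phosphatase that binds the GluD2 tail, was at 0.34 and the scaffold gene Magi2 at 0.56. They span 185 and 1478 kb, in classes of which 65.1% and 87.0% were above 0. Grid2ip, also above 0 (0.30), spans 34.8 kb. The part of gene span in these values was not tested. Among 14 genes of the parallel fibre AMPA receptor and its depression, 0 were called, and 3 passed an unadjusted p of 0.05, 2 of them higher and 1 lower, where 15.3% of all features did. Gria3, an AMPA receptor subunit, had a log2 fold change of -0.43 and Cacng7, an auxiliary subunit, of 0.50 (limma adjusted p = 0.325 each). Among 17 other synaptic organisers, 0 were called, and 6 passed an unadjusted p of 0.05, 4 of them higher (7.94% of all features) and 2 lower (7.35%).

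The organisers of smallest p lay on opposite sides. Clstn3, a calsyntenin, was at 21220, 23466 and 25117 normalized counts in dCas mice and at 16991, 4315 and 13312 in LINE-1a mice (log2 fold change -1.23, limma adjusted p = 0.325). Ptprs, a receptor tyrosine phosphatase, had a log2 fold change of 0.55 (adjusted p = 0.325). In both, all LINE-1a mice lay outside the dCas range on 1 side, which 22.1% of all tested features share.

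**Figure D5:**
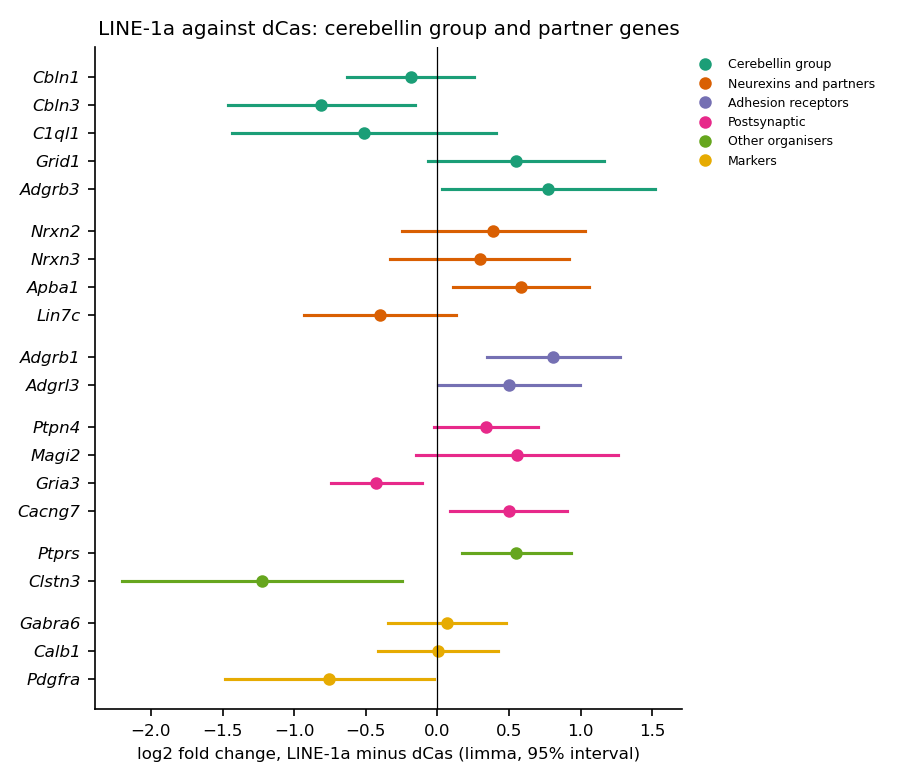
Log2 fold changes (LINE-1a minus dCas) with limma 95% intervals, unadjusted, for the 5 tested genes of the cerebellin group and for the partner and marker genes. Cbln3 (-0.81) and Clstn3 (-1.23) lie to the left, Adgrb1 (0.81) and Adgrb3 (0.77) to the right, and no gene shown passed the adjusted threshold in limma.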

How the data were processed

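The data are RNA-seq libraries of cerebellar vermis, per the labels. The authors deposited 3 tables, of which the gene table was used here. The signal values in it were made by the authors by dividing the reads of each gene by 1 size factor per library, and are called normalized counts. Whole reads were recovered by dividing each column by its smallest value above 0 (100% whole, tolerance 0.001). Per the submitters' processing notes, DESeq2, SAMtools 1.9, bedtools 2.27.1, Bowtie2 2.2.9 and STAR 2.5.3a were used, with builds mm10 and GRCm38. No counter, annotation or strand setting is given in the sources used here.

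Groups followed the sample titles. The test was limma-trend 3.58.1 (R 4.3.3) on log2(normalized count + 1). Features needed a mean of 10 or more, which left 15800, 530 of them repeat elements. Tests were two-sided, with a Benjamini-Hochberg adjusted threshold of 0.05 over all of these. The added 1 makes fold changes of low genes too small. edgeR 4.0.16 and DESeq2 1.42.0 on recovered reads were alternatives, as were other pseudocounts, filters, scalings, sample weights, libraries left out, a replicate block and sex. The fit was tried on simulated counts drawn independently for each gene. Variation shared by many genes of a library, as seen here by gene span, was not simulated. Ratios were compared by exact permutation tests over 20 splits.

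Positions, exon lengths and spans come from GENCODE vM21 on GRCm38, matched by symbol for 96.1% of tested features. Exon length is the union of all annotated exons. Members and lists were chosen with earlier results of these data known. All 7 genes are described. From each list of partner genes the 2 of smallest p were named where none passed, and Nrxn2, Nrxn3, Gabra6, Calb1 and Pdgfra were always given. The labels do not say that replicates came from separate litters or days, so a p-value covers only how these mice vary, which may be partly technical. Libraries of 1 group differed far beyond counting noise (chi-square per degree of freedom of 26.1 to 130). The gene of GluD2 and a further partner gene were taken out of the lists after their values had been seen and are not reported here.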

Additional observations from a re-analysis of the deposited data

How the results depend on the processing

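Directions held for all 5 tested genes under every alternative run, and no call was lost, since none was made. Only sample weights changed a call: with them 2 of the 5 passed, Cbln3 (-0.84, adjusted p = 0.0382) and Adgrb3 (0.83, adjusted p = 0.0481), but 1220 features (7.72%) passed as well. Weights ran from 0.345 for LINE-1a 2 to 3.77 for dCas 2, estimated gene by gene because the default did not converge. Leaving out 1 library at a time gave log2 fold changes of -1.03 to -0.58 for Cbln3, 0.50 to 1.16 for Adgrb3, 0.31 to 0.86 for Grid1, -0.37 to -0.08 for Cbln1 and -0.84 to -0.14 for C1ql1, with 0 of them called. Without LINE-1a 1 the limma adjusted p of Cbln3, Adgrb3 and Grid1 was 0.0914. In that fit 4510 of the 15800 features had an unadjusted p under 0.05, against 2417 with all libraries. The difference in the log2 ratio of Cbln3 to Cbln1 ran from -0.86 to -0.28, the latter without LINE-1a 2, and that of Cbln1 to granule cell markers from -0.60 to -0.31, and was -0.32 with markers spanning under 100 kb, added after seeing the data.

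The count of called features, 23 in limma, was 36 with equal totals, which moved the median of all features from 0.03 to 0.15, 142 by DESeq2, 35 with the span trend removed, 3 with sex as a covariate, and 11 to 40 with 1 library left out (40 without dCas 1, 14 without dCas 2, 15 without dCas 3, 11 without LINE-1a 3). With the male libraries alone limma called 0, and 2391 had an unadjusted p under 0.05. The causes were not tested. With the replicate number as a block 24 were called, none of the 5 genes among them. Same-numbered mice had correlations of -0.21, 0.14 and -0.09 in their deviations, and differently numbered mice of -0.18 to 0.23. These values show no pairing by number, but with 3 mice per group they cannot exclude it. Low depth limits Cbln2, Cbln4 and C1ql1.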
